A study of Mus musculus with 13 samples.

Results

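The regions described here are stretches of mouse chromatin that carried acetylation of histone H3 at lysine 27 (H3K27ac) after 4 h of interleukin-4 (IL-4), still carried it when interferon-gamma (IFNg) was given together with IL-4, and were marked neither in untreated cells nor after 4 h of IFNg alone. The enriched islands of all 13 chromatin immunoprecipitation libraries of the study were merged where they overlapped. A merged region was kept when it held an island in the IL-4 library and in the IFNg + IL-4 library at 4 h and none in the untreated library or the IFNg library at 4 h. This gave 946 regions of 39569, or 2.39%. Because the calls in these 4 libraries chose the regions, their values in those libraries are given as a description. Calls in the 2 h and shRNA libraries did not enter the rule, but islands of those libraries entered the merging and so were not fully independent of the choice. Merging the 4 libraries of the rule alone gave 1174 regions.

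H3K27ac marks active promoters and enhancers and is laid down by histone acetyltransferases that transcription factors bring to the DNA. IL-4 acts through its receptor, Janus kinases and the factor STAT6, and drives the alternative activation of macrophages, with genes such as Arg1, Retnla, Chil3 and Ccl24. IFNg acts through its own receptor and Janus kinases and drives classical activation, with interferon-induced GTPases, chemokines and antigen presentation, and each cytokine is known to restrain part of the program of the other.

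All libraries were made from primary macrophages grown from C57BL/6 bone marrow in L929-conditioned medium and used at day 7, with the antibody ab4729. The cytokine libraries were IFNg (100 ng/ml) with IL-4 (10 ng/ml), IL-4 alone and IFNg alone, each for 2 h and for 4 h, and untreated cells. The other 6 libraries came from macrophages with a scramble shRNA, shJunB or shCEBP-beta, each with IFNg (100 ng/ml) for 4 h or untreated; none of them received IL-4. JunB is an AP-1 subunit and C/EBP-beta a basic leucine zipper factor, both known in macrophage activation. Each condition had 1 library, so no difference between 2 conditions can be set against a spread between replicates. How many mice gave cells to a library, and how far each shRNA lowered its target, are not given in the sources used here.

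Library totals ranged from 14.3 to 37.4 M reads, and the 4 libraries of the selection held 37.4 M (IFNg + IL-4), 25.5 M (IL-4), 35.7 M (IFNg) and 21.7 M (untreated), so depth moved with the groups and its part in the selection was not tested. All 8 macrophage markers examined, among them Adgre1, Csf1r and Spi1, lay in called regions in all 13 libraries, with summed reads from 45396 to 67849. Of 5 fibroblast markers Col1a2, Col3a1, Pdgfra and Dcn were called in no library, and the summed reads of the list ranged from 0 to 51.8. Of 5 mast cell and basophil markers 3 were called in some library, with sums of 0 to 167, and of 5 neutrophil markers 2 were, with sums of 326 to 2040. The lists for T cells, B cells, dendritic cells and eosinophils had 3 of 6, 4 of 5, 5 of 5 and 2 of 4 genes called in some library, with sums of 6770 to 12973, 2871 to 8436, 12509 to 33460 and 3653 to 11658. Some of these genes are also marked in macrophages, and the part of other cells was not tested.

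Few of the regions were promoters. Of 910 regions on chromosomes with entries in the promoter table, 61 (6.70%) held the start of a protein-coding gene, against 23.0% of all regions. Of the IL-4-gained regions that lost their island when IFNg was added, 3.83% did, so few promoters are not particular to the kept regions. Counting noncoding genes as well, 120 annotated starts fell in 101 kept regions. As examples of a kept region that covers the start of a gene, 5 promoters are shown from 250 bases before to 50 bases after the start. They are those of Ear14, Sptbn1, Aifm3 and Chil4, in the 4 highest-ranked of the 61 regions, and the first of 2 annotated starts of Il12a, chosen because the gene is on a list used below. Ear14 encodes an eosinophil-associated ribonuclease, Chil4 a secreted chitinase-like protein, Il12a the p35 chain of interleukin-12, Sptbn1 a spectrin of the membrane skeleton, and Aifm3 a mitochondrial protein of the apoptosis-inducing factor family. Sequences are from RefSeq (GRCm38.p6), 5′ to 3′ on the strand of the gene, and capitals mark matches to TTC and GAA with 3 or 4 bases between them (the spacings bound by STAT factors), TGANTCA (AP-1) or TTGCNNAA (C/EBP), with N for any base and both strands searched. A match of one motif may overlap one of another.
Ear14, chr14:51203445-51203744, plus strand: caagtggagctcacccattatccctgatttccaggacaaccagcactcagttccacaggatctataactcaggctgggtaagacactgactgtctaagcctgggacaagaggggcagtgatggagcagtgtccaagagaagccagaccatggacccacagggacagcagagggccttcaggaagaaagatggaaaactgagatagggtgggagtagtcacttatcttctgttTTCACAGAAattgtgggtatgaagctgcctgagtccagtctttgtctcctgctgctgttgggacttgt
Sptbn1, chr11:30219723-30220022, minus strand: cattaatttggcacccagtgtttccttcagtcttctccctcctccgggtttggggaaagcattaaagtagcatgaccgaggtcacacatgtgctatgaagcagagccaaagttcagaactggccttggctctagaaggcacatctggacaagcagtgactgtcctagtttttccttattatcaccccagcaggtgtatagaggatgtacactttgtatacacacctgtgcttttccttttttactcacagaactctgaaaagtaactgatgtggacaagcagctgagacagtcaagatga
Chil4, chr3:106219430-106219729, minus strand: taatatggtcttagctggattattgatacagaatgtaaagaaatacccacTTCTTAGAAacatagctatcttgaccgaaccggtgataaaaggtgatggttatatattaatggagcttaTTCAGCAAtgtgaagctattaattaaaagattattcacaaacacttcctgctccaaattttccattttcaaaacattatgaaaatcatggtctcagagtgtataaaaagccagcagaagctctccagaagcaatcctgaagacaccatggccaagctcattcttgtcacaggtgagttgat
Il12a, chr3:68690394-68690693, plus strand: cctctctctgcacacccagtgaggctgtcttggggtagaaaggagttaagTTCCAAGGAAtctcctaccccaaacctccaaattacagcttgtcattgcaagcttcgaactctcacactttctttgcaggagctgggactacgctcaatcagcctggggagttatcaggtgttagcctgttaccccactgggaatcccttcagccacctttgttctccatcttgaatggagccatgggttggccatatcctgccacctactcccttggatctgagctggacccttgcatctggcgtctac
Aifm3, chr16:17489427-17489726, plus strand: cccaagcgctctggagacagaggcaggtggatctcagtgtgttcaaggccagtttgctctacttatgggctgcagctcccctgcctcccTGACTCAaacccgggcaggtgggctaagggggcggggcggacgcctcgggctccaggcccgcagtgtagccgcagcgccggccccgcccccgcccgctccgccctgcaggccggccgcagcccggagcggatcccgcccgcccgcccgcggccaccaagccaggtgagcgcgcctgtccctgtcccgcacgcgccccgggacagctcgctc
The windows of Ear14 and Chil4 each held 1 match with a spacer of 3 bases, that of Chil4 also 1 match to the C/EBP letters, the Il12a window 1 match with a spacer of 4 bases, and the Aifm3 window 1 match to the AP-1 letters. The Sptbn1 window held none of these letters. Over the 120 promoter windows in kept regions, TTC and GAA with 4 bases between them were found in 12 (10%), against 6.95% of all 32851 promoters of the table. With 3 bases between them they were found in 9 (7.50%), against 8.30% of all promoters. TGANTCA was found in 11 (9.17%), against 7.81%, and TTGCNNAA in 18 (15.0%), against 10.8%. These shares are counts of letters in promoters only, whereas most of the kept regions lay elsewhere. No genome sequence was used here, so the distal regions could not be searched.

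The regions lay mostly away from gene starts. Of the 946, 524 (55.4%) touched a protein-coding gene or the 1 kb beside it, against 68.5% of all regions, and 172 (18.2%) lay more than 50 kb from any, against 12.0%. Of the 2035 IL-4-gained regions that lost their island when IFNg was added, 55.6% touched a gene and 21.6% lay more than 50 kb away. This position was thus not particular to the kept regions. The kept regions had a median length of 5400 bp, the same as over all regions. Of them 407 (43.0%) lay within 10 kb of a region marked in untreated cells, against 50.9%. Many were neighbours of each other: 277 (29.3%) lay within 50 kb of another kept region, in 105 groups, of which 32 had 3 or more. Of all regions 7.88% lay within 50 kb of a kept region, and of the 2035 IL-4-gained regions that lost their island 19.4%.

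The regions had been marked by IL-4 at 2 h for the most part. At that time 564 of the 946 (59.6%) held an island with IFNg + IL-4, 696 (73.6%) with IL-4 alone and 175 (18.5%) with IFNg alone. Over all 39569 regions the same libraries had islands in 60.9%, 53.7% and 57.0%. The rule did not use calls from these libraries, but it chose by the same treatments at 4 h. A high share with IL-4 and a low share with IFNg at 2 h were therefore partly set by the choice. In them the share of kept regions was close to the background with IFNg + IL-4, above it with IL-4 and under it with IFNg. By pattern, 357 regions were called in both libraries with IL-4 but not with IFNg alone, 133 in all 3 libraries, 197 with IL-4 alone only, 44 with IFNg + IL-4 only, and 173 in none of them. The remaining patterns were IFNg + IL-4 together with IFNg (30 regions), IL-4 together with IFNg (9) and IFNg only (3). The regions that IL-4 also marked at 4 h without IFNg, but that lost their island when IFNg was added, number 2035, and they had an island in 12.0% of cases with IFNg + IL-4, 38.5% with IL-4 and 6.58% with IFNg at 2 h.

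**Figure D1:**
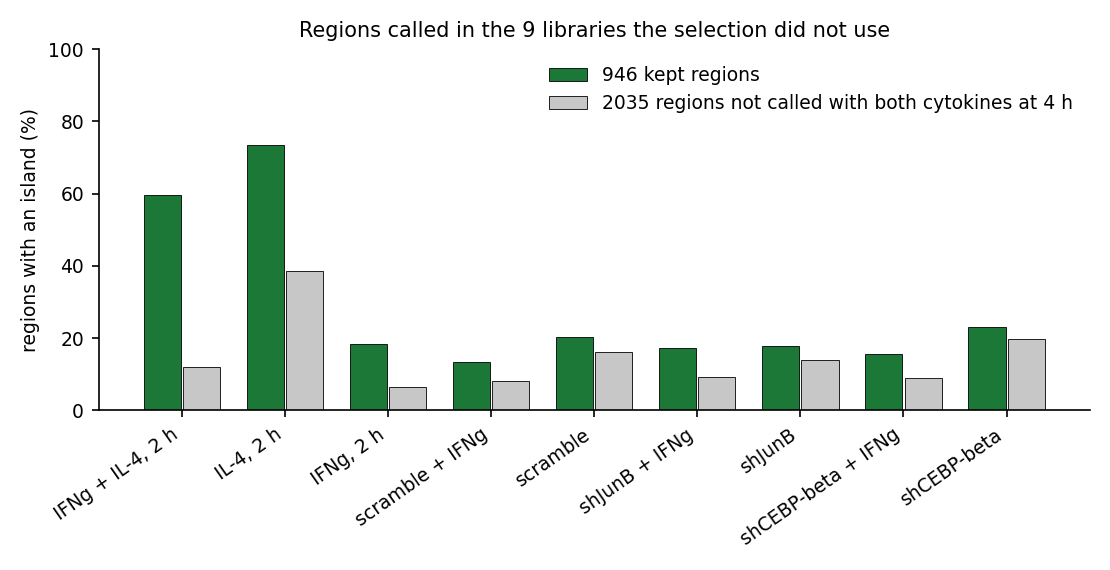
Percent of regions with an island (vertical axis) in the 3 cytokine libraries at 2 h and the 6 shRNA libraries, for the 946 kept regions (green) and the 2035 regions not called with both cytokines at 4 h (grey). The kept regions reach 59.6% and 73.6% in the 2 h libraries with IL-4 and are at 13.4% to 23.2% in all others.

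The kept regions held more reads with IL-4 alone than the regions that lost their island. Reads are given after division by size factors (normalised reads). Where a library lists no island the region is said not to be called, and this does not mean that it had 0 reads. Of the 2981 regions gained with IL-4 and not with IFNg, 946 (31.7%) were kept. The share was 17.3% (167 of 963) below 50 normalised reads, 23.5% from 50 to 100, 40.6% from 100 to 200, 63.5% from 200 to 400 and 83.1% (143 of 172) at 400 or more. The median level with IL-4 at 4 h was 122 normalised reads in the kept regions and 58.4 in the others. The reads and the calls at 4 h come from the libraries that chose the regions, so these values describe the choice and nothing is read from them. The rule did not use the calls at 2 h, though islands of those libraries entered the merging. From 100 to 200 reads 81.5% of the kept regions and 64.5% of the others had an island with IL-4 at 2 h. Below 50 reads these shares were 37.7% and 19.8%.

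Gain is a matter of calling here. A region with no island can still hold reads under the threshold, and the 5th percentile of reads per island stood at 57.1 normalised reads in untreated cells and 42.8 with IFNg at 4 h. Of the 946 regions, 277 (29.3%) were at least 2-fold above both of these levels in both of the libraries that kept them. Regions just inside the threshold lay at Cyrib, 397 kb from Gsdmc and at Myo18a. Their weakest island had a false discovery rate of 0.00949, 0.00946 and 0.00943, in that order. Just outside lay regions near Lta4h and at Neo1 and Cdk17, left out by islands in untreated cells with rates of 0.00858, 0.00800 and 0.00800. A further 895 regions were called in both IL-4 libraries at 4 h and not with IFNg, but had an island in untreated cells.

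Adding IFNg to IL-4 left most of the kept regions with fewer reads. At 4 h the median was 83.6 normalised reads with IFNg + IL-4 and 122 with IL-4, and the median log2 ratio was -0.45, against -0.08 over all regions called in both libraries. The rule did not use the calls at 2 h. At that time the 490 regions called in both libraries held a median of 143 with IFNg + IL-4 and 196 with IL-4. Their median log2 ratio was -0.54, against -0.06 over all regions. In the 161 regions called in both whose island was lost at 4 h it was -0.64. Of those, 39.8% were at least 2-fold lower, against 34.5% of the 490. Lower reads at 2 h were thus not particular to the kept regions. Reads were summed over called islands, and the called length moved with them: at 2 h its median was 3.4 kb with IFNg + IL-4 and 4.8 kb with IL-4, and the density was 42.8 and 39.9 reads per kb. The median log2 ratio of called length at 2 h was -0.50, against -0.11 over all regions called in both libraries. That of the density was 0.085, against 0.11 over all regions. The density ratio at 2 h was thus close to the value over all regions and is not a result about the kept regions. At 4 h the called length was 3 kb with IFNg + IL-4 and 3.2 kb with IL-4, and the density 31.3 and 40.1 reads per kb. The median log2 ratio of the density at 4 h was -0.34, against -0.20 over all regions called in both libraries.

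For counts of regions, higher and lower mean a difference of 2-fold or more with 50 or more normalised reads on the higher side, a missing island being set to the 5th percentile of reads per island. With IFNg + IL-4 against IL-4 at 2 h, 98 of 753 kept regions were higher and 301 lower, where 17.5% of all regions were higher and 13.5% lower. The libraries that served to choose the regions, at 4 h, had 78 of 859 higher and 293 lower, against 19.7% and 13% of all regions. The contrasts with IFNg alone at 2 h repeat treatments that the rule set apart at 4 h. Their direction was thus partly set by the choice. IL-4 against IFNg at 2 h had 397 of 726 regions higher (54.7%) and 28 lower, against 11.6% and 19.4% of all regions. IFNg + IL-4 against IFNg at 2 h had 242 of 568 higher (42.6%) and 13 lower, against 6.31% and 9.06%. In the 163 regions called in both of these libraries the median log2 ratio was 0.74, against 0.02 in the 66 such regions whose island was lost at 4 h. Called length and density were both larger with IFNg + IL-4 in those 163, at 4.2 kb against 3.2 kb and 48.9 against 37.2 reads per kb.

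How far the ratios at 2 h and at 4 h ran together was close to that over all regions, so it is not a result about the kept regions. Over the 490 regions the log2 ratios at 2 h and at 4 h had a Pearson r of 0.59 and a Spearman rho of 0.60, and 75.3% had the same sign, where all 17485 regions with both ratios had 0.68, 0.65 and 74.0%. These are descriptions across regions of the same libraries, which share depth and called length, and regions are not replicates. At least 2-fold lower with IFNg + IL-4 at both times were 115 of the 490 (23.5%), against 918 of all 17485 (5.25%). At least 2-fold higher at both times were 18 (3.67%), against 1228 (7.02%). The libraries at 4 h are those that chose the regions, so these counts are a description.

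**Figure D2:**
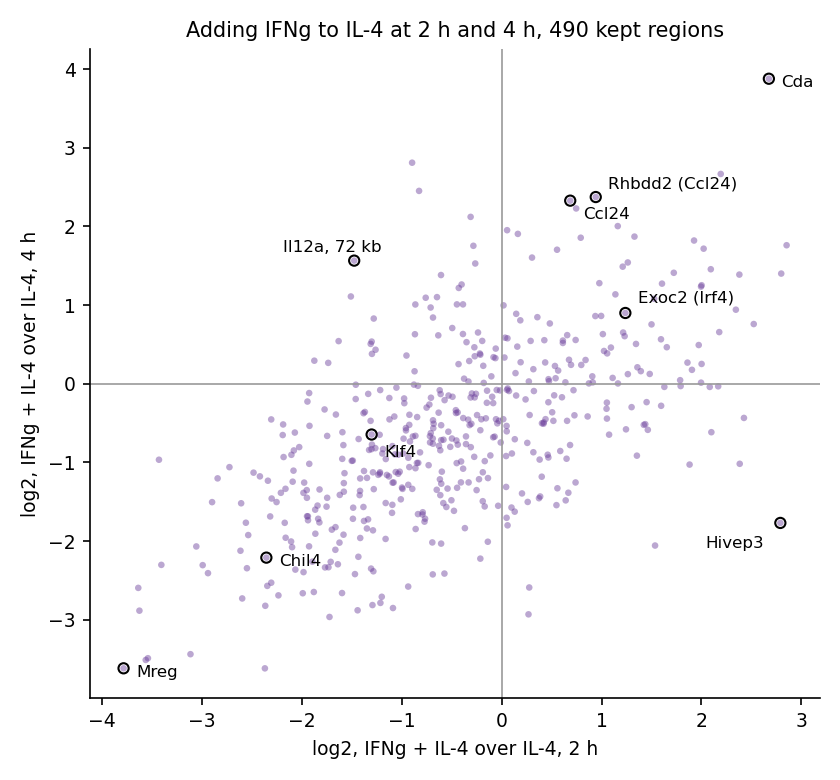
Log2 ratio of normalised reads, IFNg + IL-4 over IL-4, at 2 h (horizontal axis) and 4 h (vertical axis) for the 490 kept regions called in all 4 libraries; each point is a region and circled points carry the nearest gene. Of the points, 281 lie below 0 on both axes and 88 above 0 on both, with the Mreg region at the lower left and the Cda region at the upper right.

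The kept regions were ranked by the lower of their reads with IFNg + IL-4 and with IL-4 at 4 h. The first lay 26.7 kb from Klf4, at chr4:55559201-55577200 (coordinates throughout on GRCm38/mm10, counted from 1). Klf4 is a zinc finger transcription factor linked to alternative activation. This region held 536 and 1108 normalised reads with IFNg + IL-4 at 2 h and 4 h, 1320 and 1731 with IL-4, and 84.5 with IFNg at 2 h. The fold of IFNg + IL-4 over IL-4 was 0.41 at 2 h (95% interval of counting error 0.37 to 0.45) and 0.64 at 4 h (0.60 to 0.68). The called stretch was 7.4 and 15.2 kb with IFNg + IL-4 and 17.8 and 16.8 kb with IL-4. The region was called in no shRNA library, and smaller kept regions lay 46.3 and 71.5 kb from the gene.

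The second region, at chr3:61029801-61043000, lay 20.8 kb from P2ry1, a receptor for ADP. It held 939 and 1099 normalised reads with IFNg + IL-4 at 2 h and 4 h, 1511 and 1864 with IL-4 and 94.4 with IFNg at 2 h. Dnah12, an axonemal dynein, held the third in its span, at chr14:26714601-26743800. There IFNg + IL-4 gave 893 normalised reads at 4 h and no call at 2 h, and IL-4 gave 556 at 2 h and 1827 at 4 h. In all 3 of these regions the library with IFNg was the lower at each time at which both were called.

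Genes of the ribonuclease A family, small secreted ribonucleases that include the angiogenins and the eosinophil-associated ribonucleases, held 4 of the 15 highest regions, in 2 groups on chromosome 14. The region over Ang2 and Ear14, at chr14:51193401-51205400, had 678 and 775 normalised reads with IFNg + IL-4 at 2 h and 4 h and 1388 and 1710 with IL-4, with no call for IFNg at 2 h. This is the region whose Ear14 promoter is printed above. The neighbouring region 7.7 kb from Ang2 had 537 and 744 with IFNg + IL-4, against 1145 and 1287 with IL-4. At Ang5, at chr14:43960001-43971000, the values were 255 and 748 with IFNg + IL-4 and 1096 and 1397 with IL-4. The region 8.9 kb from Ang6 was not called with IFNg + IL-4 at 2 h, had 661 at 4 h, and had 1228 and 1469 with IL-4. The genes of this family are near-identical in places, so the placing of reads among neighbours is uncertain.

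Of the other regions among the 25 highest, most were lower with IFNg as well. In Megf11, which encodes a protein with EGF-like repeats, IFNg + IL-4 gave 438 and 847 normalised reads at 2 h and 4 h and IL-4 1733 and 2213. The region 101.5 kb from Hhip, an antagonist of hedgehog ligands, had 606 and 795 with IFNg + IL-4 and 1125 and 2006 with IL-4. The region in Tnk2, a non-receptor tyrosine kinase, 48.4 kb from the transferrin receptor gene Tfrc, had 585 and 590 with IFNg + IL-4 and 1419 and 1492 with IL-4. Close to equal at 4 h were the region 72.9 kb from Stt3b, a subunit of the oligosaccharyltransferase, with 885 with IFNg + IL-4 and 992 with IL-4, and that 133.9 kb from the same gene, with 679 and 717. The region 25.1 kb from the phosphatase gene Ppm1b was in the same case, with 485 with IFNg + IL-4 and 488 with IL-4 at 4 h. At 2 h it was lower with IFNg + IL-4, at 178 against 327. The regions near Kcnd3 (a potassium channel) and in Slc7a14 (a member of the cationic amino acid transporter family), Ak8 (an adenylate kinase) and Oxr1 (a gene of oxidation resistance) had between 274 and 444 normalised reads at 2 h with IFNg + IL-4 for all but Ak8, which had 516, and between 531 and 1332 with IL-4.

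A few of the highest regions went the other way at one time or at both. In Exoc2, an exocyst subunit, at chr13:30860401-30875800, IFNg + IL-4 gave 1307 and 1021 normalised reads at 2 h and 4 h, IL-4 554 and 547, and IFNg 238 at 2 h. The folds of IFNg + IL-4 over IL-4 were 2.36 (2.13 to 2.61) and 1.87 (1.70 to 2.06), with a called length of 12.4 and 14.6 kb against 5.4 and 7.6 kb. This region lies 93.4 kb from Irf4, a transcription factor needed for parts of alternative activation. In Nbea, which encodes neurobeachin, a protein of membrane traffic, IFNg + IL-4 gave 1210 at 2 h and 674 at 4 h, IL-4 400 and 817 and IFNg 525 at 2 h. In Zcchc7 the values were 1338 and 479 with IFNg + IL-4, 891 and 865 with IL-4 and 218 with IFNg. The second region near Hhip, 168.1 kb away, had 1152 and 611 with IFNg + IL-4, 1105 and 2127 with IL-4 and 490 with IFNg. Nbea and Zcchc7 were thus higher with both cytokines at 2 h and lower at 4 h. In Atrx, a chromatin remodeller, IFNg + IL-4 gave 548 and 1044, IL-4 739 and 878. Near Jcad the values were 369 and 1037 with IFNg + IL-4 and 884 and 768 with IL-4. In Gnb1, a G protein beta subunit, they were 517 and 638 with IFNg + IL-4 and 540 and 509 with IL-4. Eefsec, the elongation factor for selenocysteine, was not called with IFNg + IL-4 at 2 h and had 489 at 4 h, against 386 and 468 with IL-4. Atrx, Jcad, Gnb1 and Eefsec were higher with IFNg + IL-4 at 4 h only.

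**Figure D3:**
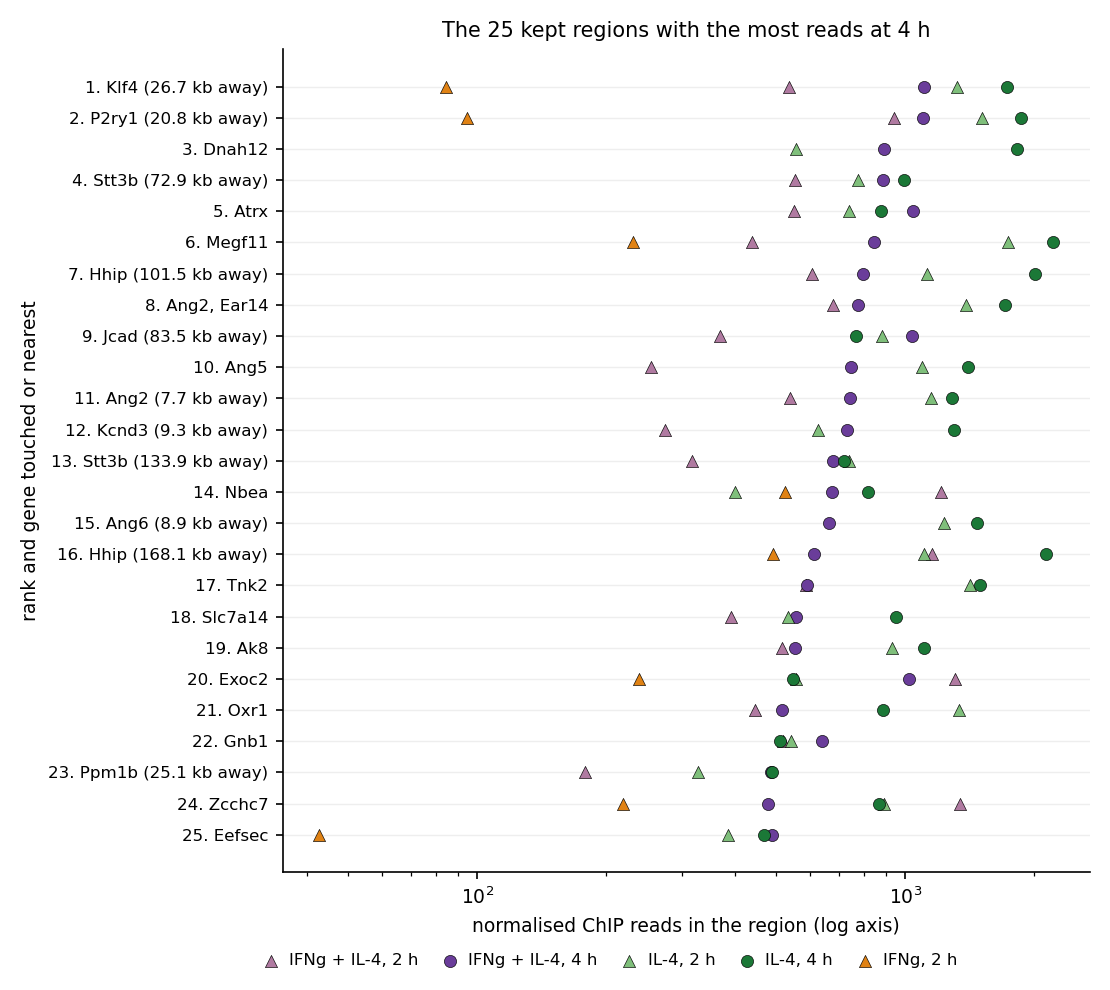
Normalised ChIP reads (horizontal log axis) of the 25 kept regions with the highest level at 4 h, ranked by the lower of their reads in the 2 libraries with IL-4; triangles are 2 h and circles 4 h, and a missing point means no island. IFNg alone at 2 h (orange) was called in 8 of the 25 and is the lowest point in all but the Nbea region.

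Several of the best known genes of alternative activation had a kept region beside them rather than over them. Of 56 genes on this list 2 were touched and 17 (30.4%) lay within 100 kb of a kept region, against 10.0% of all 21896 protein-coding genes and 13.6% of those touched by a region marked with IL-4 at 4 h. The lists were drawn up knowing earlier results of these data, so these counts describe the lists and no test is given. The 32 kept regions near those 17 genes were called in 19 cases with IFNg + IL-4 and in 28 with IL-4 at 2 h, where 564 (59.6%) of all 946 kept regions were called with IFNg + IL-4. Of the 19 called in both, 10 were at least 2-fold lower with IFNg + IL-4 and 1 was higher, where 34.5% of the 490 kept regions and 11.6% of all regions called in both were lower. At 4 h 13 of the 32 were lower and 4 higher, where 31.0% of all kept regions and 10.4% of all regions called in both were lower. With so few regions nothing particular to the list is read from these counts. The genes described next within 100 kb were chosen after their values were seen.

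Arg1, which turns arginine into ornithine and urea, had a group of 7 kept regions beside it, reaching to Akap7, in chr10:24968401-25101200. Summed over the group, IFNg + IL-4 gave 169 normalised reads at 2 h in 6.2 kb called, and 1235 at 4 h in 55.8 kb. IL-4 gave 3284 at 2 h in 97.8 kb and 1913 at 4 h in 72 kb. IFNg at 2 h was not called. All 7 regions had an island with IL-4 at 2 h and 2 had one with IFNg + IL-4, so the group was mostly not called at 2 h with both cytokines and was called throughout at 4 h.

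Chil4 and Chil3 encode secreted chitinase-like proteins. The region covering the Chil4 start, at chr3:106218601-106230400, had 234 and 345 normalised reads with IFNg + IL-4 at 2 h and 4 h, 1197 and 1596 with IL-4, and no call with IFNg. The folds were 0.20 (0.17 to 0.22) and 0.22 (0.20 to 0.24), in a called length of 3.8 and 4.6 kb with IFNg + IL-4 and 11.8 kb with IL-4 at either time. Of the regions near the resistin-like genes Retnla and Retnlg, the one 4.8 kb from Retnlg had 46.8 and 162 with IFNg + IL-4 and 114 and 588 with IL-4. The one 8.1 kb from Retnla was called at 4 h only, with 64.9 with IFNg + IL-4 and 75.1 with IL-4. Tmem26, a membrane protein known as an IL-4 target in macrophages, had a region 35.1 kb away with 118 with IFNg + IL-4 at 4 h, against 493 and 538 with IL-4 at 2 h and 4 h.

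Ccl24, the eotaxin-2 chemokine that draws eosinophils, had 2 kept regions beside it, and both held more reads with both cytokines than with IL-4. The region 7.9 kb from it, at chr5:135581001-135588200, had 570 and 889 normalised reads with IFNg + IL-4 at 2 h and 4 h, 354 and 177 with IL-4, and no call with IFNg. The region 34.3 kb from it, at chr5:135607401-135620400, had 1270 and 1595 with IFNg + IL-4, against 661 and 308 with IL-4. At 4 h the folds were 5.02 (4.31 to 5.87) and 5.18 (4.62 to 5.83). The called length at 4 h was 7.2 and 13 kb with IFNg + IL-4 and 3.2 and 7.6 kb with IL-4. In both regions every value with IFNg + IL-4 lay above the value with IL-4 at the same time.

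Near other listed genes the differences were mixed. A region 36.1 kb from Tfrc had 139 and 189 with IFNg + IL-4 at 2 h and 4 h and 281 and 524 with IL-4. Near Igf1, the region 86.6 kb away had 149 with IFNg + IL-4 and 346 with IL-4 at 4 h. The region 33.2 kb from Igf1 went the other way at 4 h, with 84.9 and 40.8. Il31ra, a chain of the IL-31 receptor, had a region 1.9 kb away with 262 with IFNg + IL-4 at 4 h and 68.4 and 164 with IL-4 at 2 h and 4 h, and one in Ddx4, 53.9 kb away, with 203 with IFNg + IL-4 and 350 with IL-4 at 4 h. Between Ccl8 and Ccl1, 2 CC chemokine genes on chromosome 11, the largest kept region had 234 and 179 with IFNg + IL-4, 237 and 190 with IL-4 and 90.0 with IFNg at 2 h. Those values are nearly equal between the 2 treatments. The regions closest to Irf4, at 7.2 and 45.8 kb, were small, with 54.8 and 62.2 with IFNg + IL-4 and 110 and 65.8 with IL-4 at 4 h.

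Among signalling genes, Socs2, a feedback inhibitor of cytokine receptors, held a kept region over one end of its span, at chr10:95413201-95420800. It had 358 and 182 normalised reads with IFNg + IL-4, 933 and 538 with IL-4, and 161 with IFNg at 2 h. A second region 27.1 kb from Socs2, nearest to Mrpl42, had 73.7 and 114 with IFNg + IL-4, against 916 and 690 with IL-4. Both were lower with IFNg at both times.

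Cytokine and receptor genes had 13 of 47 members within 100 kb (27.7%), against 10.0% of all protein-coding genes. Of those touched by a region marked with IL-4 at 4 h the shares were 31.0% and 13.6%. Neighbouring genes share regions, so these are not separate hits. Ccl1, Ccl2, Ccl7 and Ccl12 all lay within 100 kb of the same region, 12.0 kb from Ccl8. In Il1r1, the signalling receptor of interleukin-1, IFNg + IL-4 gave 127 and 140 normalised reads and IL-4 545 and 563. The region 4.0 kb from Tnfrsf8, which encodes CD30, had 152 and 143 with IFNg + IL-4 and 396 and 479 with IL-4. Both regions were at least 2-fold lower with IFNg at both times. Of 22 genes of classical activation Il12a and Ccl2 lay within 100 kb. At the Il12a start, whose promoter is printed above, IFNg + IL-4 gave 76.7 and 326 and IL-4 123 and 182, and in the region 6.1 kb away the values were 378 and 478 with IFNg + IL-4 and 247 and 334 with IL-4. Neither was called with IFNg at 2 h.

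Of 22 genes of lipid handling, 4 lay within 100 kb. The region in Alox5, which makes leukotrienes, had 380 and 114 with IFNg + IL-4, 169 and 114 with IL-4, and 370 with IFNg at 2 h. That 22.8 kb from the fatty acid-binding protein gene Fabp5 had 517 and 102 with IFNg + IL-4, 114 and 64.9 with IL-4 and 151 with IFNg. In Abcg1, a cholesterol exporter, the values were 39.9 and 108 with IFNg + IL-4 and 92.9 and 169 with IL-4. Of 37 transcription factor genes 9 (24.3%) lay within 100 kb and none was touched, and of 32 genes of adhesion and migration 8 did. Vcan, the proteoglycan versican, was the gene touched on the adhesion list, with 114 and 66.9 with IFNg + IL-4 and 114 and 112 with IL-4. Of 18 interferon-induced GTPase genes 0 lay within 100 kb, against 10.0% of all protein-coding genes. The rule left out every region called with IFNg at 4 h, so nothing is read from this count.

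The largest group of kept regions touched no protein-coding gene. On chromosome 15, 20 kept regions fell in chr15:63153801-63464800. The nearest protein-coding gene was Gsdmc, a gasdermin gene, 397 kb from the region of this group named above at the threshold. Together the 20 regions held 228 normalised reads with IFNg + IL-4 at 2 h and 2319 at 4 h, in 8.8 and 100.6 kb called. With IL-4 they held 605 and 3381, in 20 and 116.6 kb. With IFNg at 2 h 1 of the 20 was called. This group was thus mostly not called at 2 h with either treatment. A second group of 5 regions at chr15:62930801-63048000 had no call with IFNg + IL-4 at 2 h and 545 at 4 h, against 289 and 1081 with IL-4.

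Other groups differed in the order of the treatments. The 6 regions nearest Samsn1, an adaptor protein gene, in chr16:75998601-76082800, held 247 and 1907 with IFNg + IL-4 at 2 h and 4 h and 428 and 1435 with IL-4, in 35.2 kb against 27 kb called at 4 h. The 6 regions among the acid lipase genes Lipf, Lipk, Lipn and Lipm on chromosome 19 held 206 and 350 with IFNg + IL-4 and 66.3 and 408 with IL-4. The 5 regions from Irf4 to Exoc2 held 2116 and 1372 with IFNg + IL-4, 943 and 1008 with IL-4, and 421 with IFNg at 2 h, and the Exoc2 region described above made up most of these reads. The 4 regions near Dok2 and Gfra2 on chromosome 14 held 355 and 724 with IFNg + IL-4 and 896 and 1022 with IL-4. In the Samsn1 group and in the acid lipase group the order of the treatments at 4 h was the opposite of that at 2 h.

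**Figure D4:**
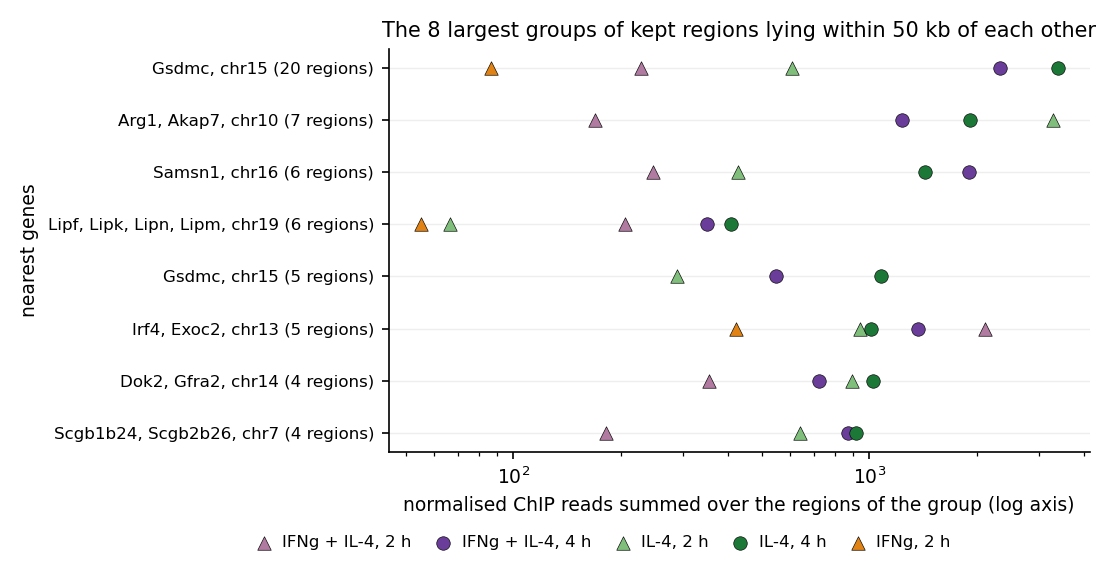
Normalised ChIP reads summed over the kept regions of each of the 8 largest groups (horizontal log axis), in which regions lie within 50 kb of the next; triangles are 2 h, circles 4 h, and a missing point means no island. The Arg1 group has 169 with IFNg + IL-4 and 3284 with IL-4 at 2 h, and the Irf4 and Exoc2 group is highest with IFNg + IL-4 at 2 h.

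The extremes at 2 h were chosen by the ratio itself, and their values are a description. Lowest was a region 120.8 kb from Mreg, a gene of melanosome transport, at chr1:72005401-72038400, with 97.6 normalised reads with IFNg + IL-4 in 2.8 kb called and 1344 with IL-4 in 32.2 kb, a fold of 0.07. With IFNg alone at 2 h it had 352 in 9 kb. At 4 h it had 177 and 2165. Also among the lowest were the Mrpl42 region near Socs2 described above and regions in Tppp (64.8 and 764 at 2 h) and Rnf220 (59.8 and 695). These 4 were at least 5-fold lower with IFNg + IL-4 at 4 h as well.

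Highest was a region in Dthd1, at chr5:62885001-62900800, with 1105 with IFNg + IL-4 in 15.8 kb called and 153 with IL-4 in 5.2 kb, and 374 with IFNg. Its 4 h values were 333 and 98.2. The region 103.1 kb from Olfm1 had 405 with IFNg + IL-4, 58.2 with IL-4 and 176 with IFNg, and that in Rab2a, a GTPase of the early secretory pathway, 569 and 99.0 with no call for IFNg. Cda, cytidine deaminase, had a region 2.3 kb away with 775 and 477 with IFNg + IL-4 at 2 h and 4 h, 121 and 32.4 with IL-4 and 183 with IFNg at 2 h, and its fold at 4 h was 14.7 (10.5 to 21.3). In Hivep3, a zinc finger gene, the values at 2 h were 1418 with IFNg + IL-4, 205 with IL-4 and 1004 with IFNg. Of these 5, the regions at Dthd1, Olfm1, Hivep3 and Cda were also called with IFNg alone at 2 h.

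The shRNA libraries had no IL-4, and few of the kept regions were marked in them. With IFNg, 127 (13.4%), 163 (17.2%) and 147 (15.5%) of the 946 were called in scramble, shJunB and shCEBP-beta cells, and without it 193 (20.4%), 168 (17.8%) and 219 (23.2%). Over all regions the shares were 56.5%, 59.7% and 59.1% with IFNg and 59.1%, 57.0% and 62.0% without. The rule left out regions called in untreated cells or with IFNg at 4 h, so low shares here were partly set by the choice. Of the kept regions 614 (64.9%) were called in none of the 6 libraries and 64 in all of them. The means were 146 ± 18.0 regions with IFNg and 193 ± 25.5 without (SD, n = 3 each). The counts did not overlap, and the exact two-sided permutation test gave p = 0.10, the smallest that 3 against 3 libraries allow. The count was lower with IFNg in 3 of 3 shRNA pairs, and the exact two-sided permutation test within pairs, added after seeing the data, gave p = 0.25, the smallest that 3 pairs allow. The libraries with IFNg were also the shallower within each shRNA, with 14.3, 22.2 and 23.9 M reads against 22.0, 24.2 and 29.5 M, and the part of depth was not tested.

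The effect of IFNg on reads was tested with edgeR's quasi-likelihood test over the 17047 regions called in all 6 libraries, of which 64 were kept regions; a region could enter only if it was marked without IL-4 in every library. At an adjusted p under 0.05 IFNg had 1 of the 64 higher and 9 lower, where 22.7% of all regions tested were higher and 21.9% lower. The rule left out every region called with IFNg at 4 h in cells without shRNA. A low count of higher regions was thus partly set by the choice, and nothing is read from it. Dag1, the dystroglycan gene, had 15.9, 18.7 and 17.5 CPM (reads scaled to the effective library size) with IFNg and 8.04, 10.8 and 9.68 without in scramble, shJunB and shCEBP-beta cells. It rose by a log2 fold change of 0.87 (SE 0.13; edgeR adjusted p = 0.0052), with groups that do not overlap. The region 23.1 kb from Dusp5, a phosphatase of ERK kinases, had 8.70, 11.5 and 3.19 CPM with IFNg and 61.4, 20.2 and 75.5 without. It fell by 2.66 on the log2 scale (SE 0.71; edgeR adjusted p = 0.032).

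The other 8 regions that fell were smaller changes, from -0.91 in Bicra (SE 0.26), a subunit of a SWI/SNF complex, to -0.52 at Them6 (SE 0.16). They lay at Amh and Jsrp1 (-0.87), Scamp2 (-0.88), Odc1 (-0.78), the rate-limiting enzyme of polyamine synthesis, Bcl7a (-0.62), Fgd4 (-0.59) and Myo18a (-0.56), with edgeR adjusted p from 0.012 to 0.047. In these regions the library with IFNg was the lower in each of the 3 pairs. The count of 9 lower was 0 without the untreated shCEBP-beta library and 0 without the shCEBP-beta library with IFNg. The Socs2 region was among the 64, with 6.45, 10.7 and 6.70 CPM with IFNg and 7.44, 9.41 and 10.4 without (log2 fold change -0.22, edgeR adjusted p = 0.43).

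For the shRNAs themselves, edgeR called 0 of the 64 regions at an adjusted p under 0.05, for shJunB and for shCEBP-beta alike, and 0 of all 17047 (0%) in either direction. At an unadjusted p under 0.05 there were 5 regions for shJunB and 3 for shCEBP-beta, and DESeq2 called 0 for both. Their median log2 fold change was -0.13 for shJunB and -0.05 for shCEBP-beta, against 0.01 over all regions for each. Each shRNA had 2 libraries. Kept regions other than these 64 were not in this fit, among them the 614 called in none of the shRNA libraries, which could not be tested.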

How the data were processed

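H3K27ac ChIP-seq of 13 macrophage libraries, 1 per condition, was used as island lists. Reads were aligned with Bowtie2 2.2.6 and islands called with SICER 1.1, and mm10 and GRCm38 are named as builds, per the submitters' processing notes. Each deposited list gives the counts of ChIP and control reads per island, the authors' p-value and FDR, and the authors' ratio of ChIP to scaled control reads. Islands lay on a 200 bp grid, at least 800 bp apart, with an FDR of at most 0.00999. Islands with the same coordinates in different lists had equal control counts (29680 of 29680), and library totals were recovered from the deposited ratios. Columns without a sample numbered 0.

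Islands overlapping in any library were merged into 39569 regions. Counts were normalised by size factors (median of ratios) over the 14347 regions called in all libraries. A region with no listed island was below the calling threshold of that library, which is not a count of 0. Folds have exact binomial 95% intervals, which cover counting error only, since reads have no molecular identifiers. Genes and promoters are from RefSeq (GRCm38.p6), with spans padded by 1 kb. The shRNA libraries were tested with edgeR 4.0.16 (quasi-likelihood, TMM, shRNA and IFNg as terms, Benjamini-Hochberg adjustment over all regions fitted), with DESeq2 1.42.0 as alternative; the p-values rest on the spread between these libraries. Scripts ran in Python 3.11.15 and R 4.3.3 and were checked on simulated data. Regions named are the 25 with the most reads in the lower of the 2 selecting libraries, those touching a listed gene, up to 10 with the smallest adjusted p, the 5 highest and 5 lowest ratios at 2 h, and 3 on each side of the threshold; 2 regions that meet this rule are not reported here. The members and lists were chosen with earlier results of these data known.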

Additional observations from a re-analysis of the deposited data

Results flagged for a closer look

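In 6 of the 490 kept regions called in all 4 libraries, the ratio of IFNg + IL-4 to IL-4 was at least 2-fold in opposite directions at 2 h and 4 h; with 1 library per condition this difference was not tested. Higher at 2 h and lower at 4 h were the regions in Hivep3 (log2 2.79 and -1.77), Galnt9 (2.38 and -1.02), Fam110b (1.88 and -1.03) and Il20rb (1.54 and -2.06). Lower at 2 h and higher at 4 h were the regions near F2r (-1.51 and 1.11) and 72.3 kb from Il12a (-1.47 and 1.57). Over all 17485 regions with both ratios 52 were opposite in this way.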

How the results depend on the processing

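The number of kept regions was 911 to 1216 under other merging and FDR thresholds, against 946, including 936 when adjoining islands were merged as well, a choice made after seeing the data; the counts called at 2 h stayed within 1.5 times. The median log2 ratio of IFNg + IL-4 over IL-4 at 2 h, -0.54, was -0.69 when scaled by library totals and 0.085 per kb of called length, where the direction turned because the called length differed. At 4 h, -0.45 became -0.54 with library totals, -0.75 with control reads subtracted and -0.34 per kb. Per kb, 63 regions were higher and 141 lower at 2 h (98 and 301 as reported), and 17 were lower with IL-4 than with IFNg (28). With only regions called in both libraries, 169 were lower with IFNg + IL-4, and 55 were higher and 15 lower with IL-4 than with IFNg (397 and 28), since fewer regions are counted. For IFNg in the shRNA libraries DESeq2 gave 4 lower regions (9), and regions called in at least 3 of 6 libraries (175 kept ones of 24374) gave 8 higher and 30 lower. Leaving out 1 library in turn gave 1 to 2 higher and 0 to 7 lower; for shJunB and shCEBP-beta all counts were 0. No paired analysis was possible by replicate number, because each condition has 1 library; the IFNg fit as reported is paired by shRNA through its shRNA term. Depth limits single regions: the smallest island held 18 reads, and regions under 50 normalised reads are close to the calling threshold.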
